A study of Drosophila melanogaster with 3 samples.

Results

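The Cpr genes of Drosophila melanogaster encode cuticle proteins, and 70 protein-coding genes carry a symbol that starts with Cpr and continues with a digit, of 13945 protein-coding genes on the 6 chromosome arms. The rule uses the symbol alone and no measured value. The symbols give the cytological band, and most of the genes stand in rows of neighbours: 35 lie on 3L, 21 on 2R, 5 each on 2L and 3R, 4 on X and none on chromosome 4. Proteins of this family carry the Rebers-Riddiford domain, which binds chitin, the long sugar polymer of insect cuticle. Epidermal cells and other cells that line the body surface, trachea, foregut and hindgut make chitin and cuticle proteins and secrete them at their apical side. In the embryo this happens late, when the first larval cuticle is laid down, and the genes are used again at each moult.

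The question was where the transcription factor CG4328 bound near these genes. CG4328 is a LIM-homeodomain protein, that is, a factor with zinc-binding LIM domains and a DNA-binding homeodomain. Its chromatin immunoprecipitation with sequencing (ChIP-seq) was carried out with an anti-GFP antibody in a stable transgenic line in which GFP was joined to the C-terminus of CG4328. Whole embryos of both sexes, 8 to 24 h old, formed 1 group of 3 biological replicates; the age is that of the source name, and a separate age label, which holds an implausible number of hours, was set aside. Chromatin was sonicated to fragments of 200 to 800 bp. All embryos carried the tagged transgene, no wild-type or mock-precipitated group was analysed here, and nothing in the labels states whether the transgene is expressed at the level of the native gene. In whole embryos, binding in few cells and weak binding in many cells cannot be told apart. The peak lists in the dm6 build were used: an optimal list of 3688 peaks and 4 relaxed lists of 30000 peaks each, which hold peaks together with background, 1 per replicate and 1 from the pooled replicates. The authors' signal value is on a scale that is not stated and was used only as a rank within a list, with rank 1 for the highest value, and read depth was unknown for every library. Replicate 3 stood apart from the others. Over all genes, its share of peaks within 500 bp of a transcription start was 17.6%, against 30.2% and 32.9% in replicates 1 and 2. Its median peak width was 396 bp, against 430 and 456 bp, and its values are therefore given separately throughout.

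Each peak was assigned to the protein-coding gene with the transcription start nearest to its summit, and such a gene need not be regulated from the peak. The optimal list held 4 peaks whose nearest gene was a Cpr gene, at Cpr92A, Cpr76Ba, Cpr51A and Cpr35B. The sequences below are 201 bp windows centred on the summits of 3 of these 4 peaks (the Cpr51A window is not printed here), together with those of Cpr65Ec and Cpr100A, which held the best pooled ranks among Cpr genes with no optimal peak. They are shown on the plus strand of the release 6 genome, at 3R:19584847-19585047 for Cpr92A, 3L:19516641-19516841 for Cpr76Ba, 2L:14433011-14433211 for Cpr35B, 3L:7090904-7091104 for Cpr65Ec and 3R:30865535-30865735 for Cpr100A. Capitals mark matches on either strand to 7 motifs. TAATTA is a core sequence of homeodomain proteins, and the longer form searched, TTAATTA, contains it. GAGAGAG is bound by the Trithorax-like protein. TATCGATA is bound by the factor DREF. TATAAA is the box of that name at core promoters, and TCAGTT is one form of the initiator. AACCGGTT is bound by Grainyhead, a regulator of epidermal and cuticle genes.
Cpr92A: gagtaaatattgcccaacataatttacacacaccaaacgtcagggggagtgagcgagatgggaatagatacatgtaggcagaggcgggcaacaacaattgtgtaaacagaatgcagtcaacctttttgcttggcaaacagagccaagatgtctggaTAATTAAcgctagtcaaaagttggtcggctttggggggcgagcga
Cpr76Ba: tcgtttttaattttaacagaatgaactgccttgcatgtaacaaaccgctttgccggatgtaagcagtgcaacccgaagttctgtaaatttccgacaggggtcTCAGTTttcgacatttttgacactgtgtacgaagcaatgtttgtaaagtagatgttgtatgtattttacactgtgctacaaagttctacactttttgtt
Cpr35B: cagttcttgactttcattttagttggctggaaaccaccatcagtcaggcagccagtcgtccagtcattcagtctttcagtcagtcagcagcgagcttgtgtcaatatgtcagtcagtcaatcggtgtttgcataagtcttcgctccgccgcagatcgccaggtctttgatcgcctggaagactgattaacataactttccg
Cpr65Ec: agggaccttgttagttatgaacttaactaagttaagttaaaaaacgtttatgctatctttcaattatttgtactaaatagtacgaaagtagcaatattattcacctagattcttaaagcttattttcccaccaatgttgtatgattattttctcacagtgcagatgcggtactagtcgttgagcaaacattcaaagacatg
Cpr100A: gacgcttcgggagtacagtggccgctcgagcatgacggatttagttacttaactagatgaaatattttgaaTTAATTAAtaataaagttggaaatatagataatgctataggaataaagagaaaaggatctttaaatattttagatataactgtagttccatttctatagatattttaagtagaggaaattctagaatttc
The Cpr92A window held TAATTA from 56 to 61 bp to the right of the summit, as part of TTAATTA. The Cpr100A window held it from 28 to 23 bp to the left of the summit, with an overlapping TTAATTA on each strand. The Cpr76Ba window held neither, and its capitals mark TCAGTT, 2 to 7 bp to the right of the summit. The Cpr35B and Cpr65Ec windows held none of these 7 motifs. A match is a description of letters, and its absence says only that those letters are not within the window.

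The best ranked of the 4 optimal peaks was that of Cpr92A (FBgn0038714, 3R:19597502-19598955, minus strand). The peak spanned 3R:19584806-19585169 and took rank 296 in the pooled list, and rank 258, 275 and 435 in replicates 1, 2 and 3. All 3 replicates placed it among their highest 3688 peaks, with summits 8, 3 and 39 bp from the pooled summit. The peak did not lie at the gene: its summit was 14008 bp downstream of the Cpr92A start and 12555 bp beyond the end of the gene, in an intron of Dys, which encodes dystrophin. The starts of CG7333 and Dys were almost as close, at 15688 and 15737 bp, and a small nucleolar RNA gene, snoRNA:Me18S-A1374, started 1249 bp away.

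The Cpr76Ba peak was the closest of the 4 to its gene. Cpr76Ba (FBgn0036878, 3L:19517552-19518332, minus strand) is the first of 4 Cpr genes in band 76B. The peak at 3L:19516608-19516867 was intergenic, 1591 bp downstream of the start and 811 bp beyond the gene's end. The next starts were those of Cpr76Bb at 2908 bp and Cpr76Bc at 4204 bp. It ranked 383 in the pooled list and 493, 992 and 114 in replicates 1, 2 and 3, so it was within the highest 3688 of every replicate and highest in replicate 3.

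Cpr51A and Cpr35B had optimal peaks upstream, between genes. The Cpr51A peak (2R:14518157-14518606) lay 3171 bp upstream of its start and ranked 1754 in the pooled list. Its ranks of 1552, 2316 and 1786 in the 3 replicates were close together, and the next starts were those of CG30197 at 4352 bp and ttv, which encodes a heparan sulfate synthesis enzyme, at 7885 bp. Its window held TAATTA, as part of TTAATTA, from -95 to -90 bp relative to the summit, and TCAGTT from 1 to 6 bp to the right. Windows of 2 of the 4 optimal peaks, those of Cpr92A and Cpr51A, thus held TAATTA, against 18.0% of all optimal windows. With 4 windows no comparison of these shares was made. The Cpr35B peak (2L:14432886-14433335) lay 7922 bp upstream of its start. Its pooled rank was 3217, near the foot of the optimal list, and its replicate ranks were 4632, 4269 and 2289. Only replicate 3 placed it among its highest 3688 peaks. The start of a long non-coding RNA, lncRNA:CR44732, was closer, at 2289 bp, and the next protein-coding starts were those of Pburs, a subunit of the cuticle-tanning hormone bursicon, at 15780 bp and CG15283 at 17811 bp. In all, 3 of the 4 peaks were among the highest 3688 of each replicate, and the same held for 56.2% of all optimal peaks. Support of this kind is a description, since these replicates also went into the optimal list.

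**Figure D1:**
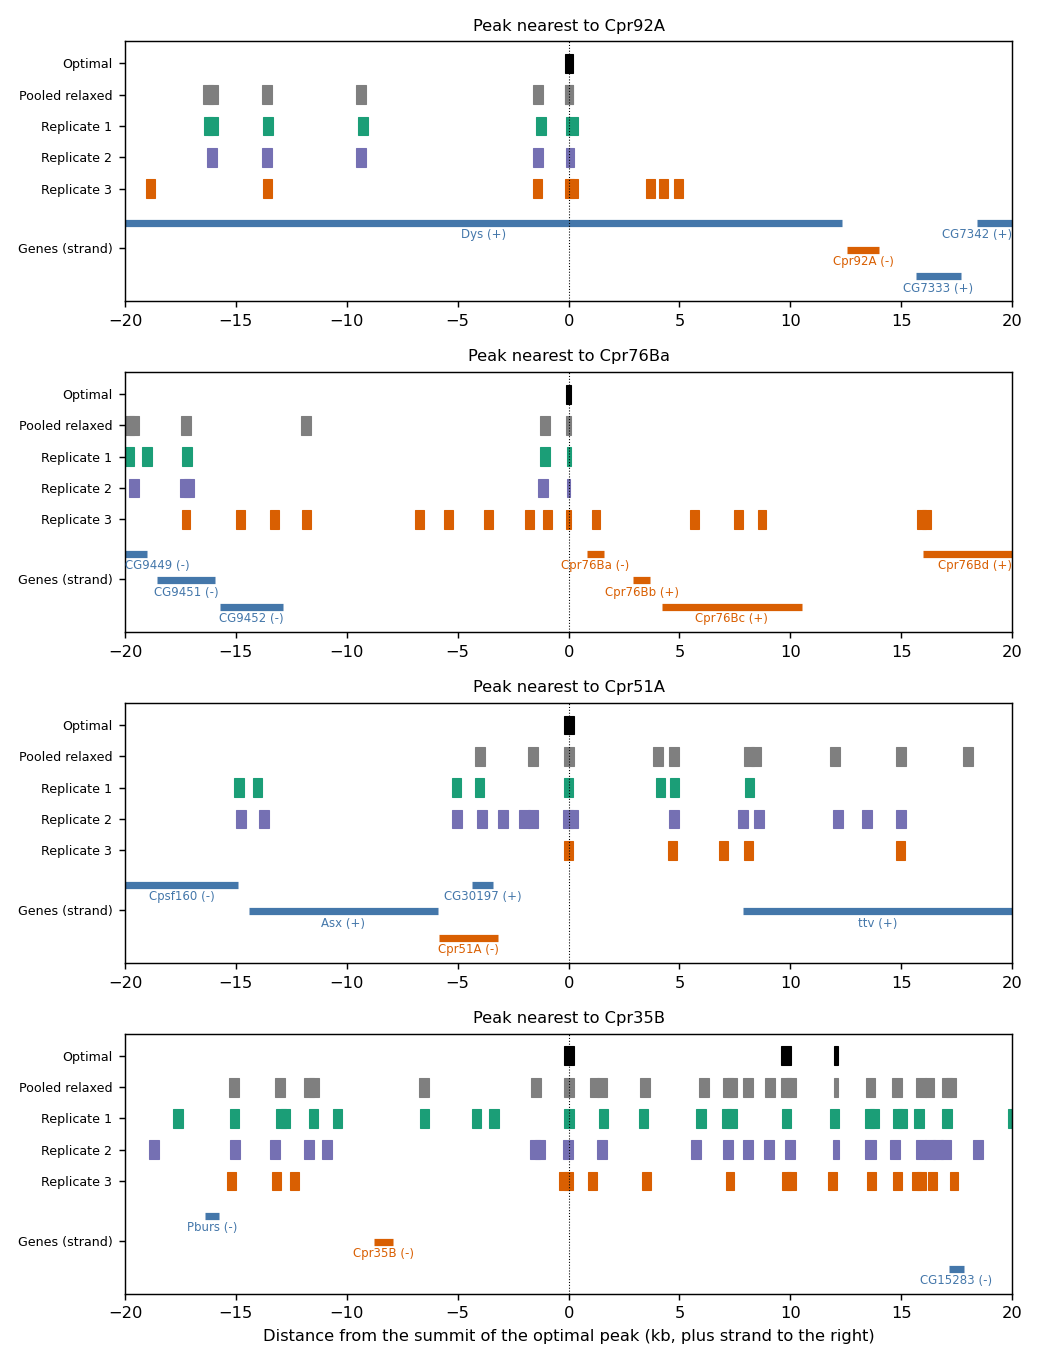
Peaks of the 5 lists and protein-coding genes within 20 kb of the 4 optimal peaks whose nearest gene is a Cpr gene; boxes are peak intervals, bars are genes with their strand, Cpr genes in orange, and the x axis is distance from the optimal summit in kb. Within this range the Cpr92A, Cpr76Ba and Cpr51A peaks were the sole optimal peaks and Cpr35B had 3 optimal peaks, while replicate 3 had 16 relaxed peaks around Cpr76Ba against 5 each in replicates 1 and 2.

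The optimal list ended at a signal value of 130.9, and the highest pooled peak with no optimal overlap had 130.8. The peak of Cpr65Ec fell just outside it. Cpr65Ec (FBgn0035737, 3L:7093204-7093841) had a pooled peak of rank 3700 and signal value 130.5, and the overlapping replicate peaks ranked 4725, 6238 and 2215. Its summit was 2200 bp upstream of the Cpr65Ec start and 2217 bp from that of its neighbour Cpr65Eb, so the assignment between the pair rested on 17 bp, and in replicate 2 the overlapping peak was assigned to Cpr65Eb. The Cpr35B peak, the lowest of the 4 inside the list, had a signal value of 142.9.

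The next Cpr genes by pooled rank were Cpr100A, Cpr64Ad and Cpr67Fb. The Cpr100A peak (3R:30865410-30865859), 1886 bp upstream of its start, ranked 5385, and its replicate peaks ranked 7585, 8740 and 5377. The Cpr64Ad peak, in an intron of CG43367 and 4648 bp downstream of the Cpr64Ad start, ranked 5954. It overlapped peaks of rank 4164 and 11714 in replicates 1 and 2 and none in replicate 3. The Cpr67Fb peak lay 517 bp upstream of its start and ranked 6085, with replicate ranks of 17503, 6359 and 3042. The authors' −log10 q values of the Cpr65Ec, Cpr100A, Cpr64Ad and Cpr67Fb peaks were 2.91, 2.07, 1.84 and 1.80. The 6 genes that followed were Cpr65Ea, Cpr73D, Cpr11B, Cpr65Aw, Cpr78E and Cpr67Fa1, with best pooled ranks from 10399 to 16933 and −log10 q values from 0.83 down to 0.30. The summit at Cpr73D lay in an intron of Ogdh, the oxoglutarate dehydrogenase gene, and that at Cpr11B in an intron of hwt. Among these 6, the peak of Cpr67Fa1 was the one classed as promoter, 486 bp upstream of the start.

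Across the family, Cpr genes were nearest to a peak less often than protein-coding genes at large in 4 of the 5 lists, and replicate 3 was the exception. The 5 lists are not independent. The optimal list holds the highest 3688 peaks of the pooled list, and the pooled list was made from the 3 replicates. Only the replicates are separate libraries, and they differed: the Cpr share was below that of all genes in each of them but replicate 3. In the optimal list 4 of 70 had a peak (5.71%, Wilson 95% interval 2.24 to 13.8), against 18.4% of all protein-coding genes. Within 500 bp of the start, no Cpr gene had an optimal peak, against 12.6% of all genes. The Wilson upper bound for 0 of 70 is 5.20%, and the limit of 3 counts in 70 is 4.29%. In the pooled list 27 Cpr genes had a peak (38.6%, 28.0 to 50.3), against 59.6% of all genes. The intervals cover only the number of genes, not read-counting error or spread between embryo collections, and neighbouring genes are not independent.

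In replicate 1, 25 Cpr genes were nearest to a peak (35.7%, interval 25.5 to 47.4), against 61.3% of all genes. In replicate 2, 21 were (30.0%, 20.5 to 41.5), against 59.5%. In replicate 3 the number was 44 (62.9%, 51.1 to 73.2), against 59.1% of all genes. The mean was 30.0 ± 12.3 genes (SD, n = 3), and replicates 1 and 2 stood together below replicate 3. By comparison, the number of all genes with a peak hardly moved, with 8542, 8296 and 8243 in the 3 lists. Peaks showed the same order: 47, 39 and 103 of each 30000 were nearest to a Cpr gene, or 63.0 ± 34.9 (SD, n = 3). That was 135, 112 and 296 peaks per Mb of the genome nearest to Cpr genes, and 224 per Mb over all genes in each list.

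**Figure D2:**
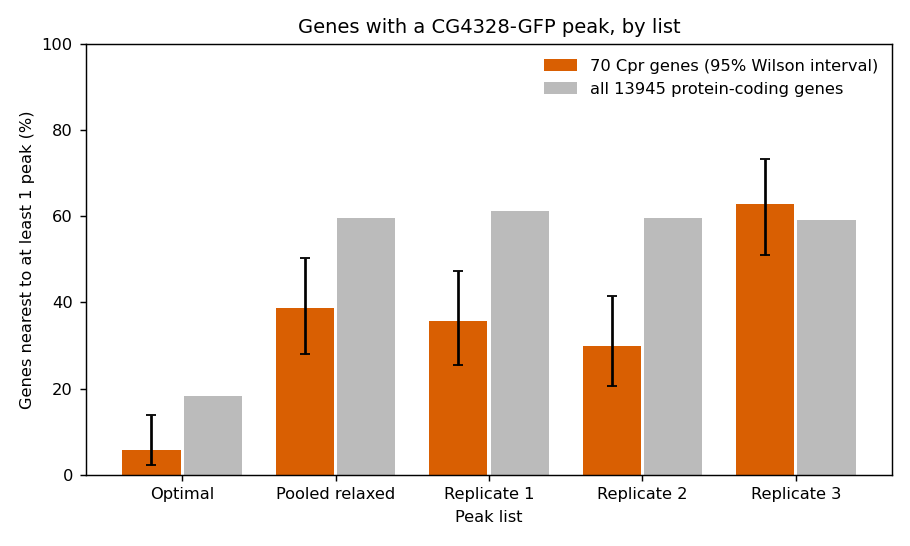
Share of the 70 Cpr genes (orange, with Wilson 95% intervals) and of all 13945 protein-coding genes (grey) nearest to at least 1 peak, in percent, for each list. The orange bar was below the grey one in the optimal, pooled, replicate 1 and replicate 2 lists, at 5.71%, 38.6%, 35.7% and 30.0%, and above it in replicate 3, at 62.9%.

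A gene with more genome nearest to its start has more room for peaks. The length nearest to a Cpr gene's starts had a median of 3364 bp (interquartile range 2105 to 6895.5 bp), against 4323 bp over all genes. Of the 5623 genes with lengths within that interquartile range, 16.0% were nearest to an optimal peak and 56.1% to a pooled peak. Among the 34 Cpr genes in that range, 1 had an optimal peak (2.94%, 0.521 to 14.9) and 15 had a pooled peak (44.1%, 28.9 to 60.5). The pooled share of these Cpr genes thus has an interval that includes the share over all genes of like length. The interval of their optimal share, which rests on 1 gene, ends below the 16.0% of all genes of like length. Of the 4 Cpr genes with an optimal peak, Cpr35B and Cpr92A had the longest lengths in the family, at 16795 and 15713 bp, and Cpr76Ba and Cpr51A had 7889 and 6119 bp.

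Gene by gene, 14 of the 70 Cpr genes had a relaxed peak in each of the 3 replicates (interval of the share 12.3 to 30.8%), against 37.3% of all genes. They were Cpr35B, Cpr51A, Cpr64Ad, Cpr65Av, Cpr65Ea, Cpr66Cb, Cpr67Fa1, Cpr67Fb, Cpr73D, Cpr76Ba, Cpr78E, Cpr92A, Cpr100A and Cpr11B. A further 12 had one in 2 replicates and 24 in 1. The remaining 20 had none in any replicate (28.6%, 19.3 to 40.1), against 18.3% of all genes. Of the 24, 20 had their peaks in replicate 3 alone (28.6% of the family), against 11.6% of all genes. These counts are per gene, and the peaks of different replicates need not overlap. At Cpr92A, Cpr76Ba and Cpr51A each replicate had a peak that overlapped the optimal peak. At Cpr64Ad and Cpr66Cb the peaks of replicate 3 lay upstream of the start and those of the other replicates downstream. Cpr65Ec was counted in 2 replicates, because the overlapping peak of replicate 2 was assigned to Cpr65Eb.

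The genes with peaks in replicate 3 alone included Cpr56F, with 6 peaks there and none in the pooled list or the other replicates. Cpr12A had 5 and Cpr50Cb had 4, again with none elsewhere. Peak numbers at Cpr35B ran the other way, with 8 in the pooled list and 8, 6 and 4 in replicates 1, 2 and 3. Cpr73D had 6 in the pooled list and 3, 1 and 3 in the replicates. Of the 103 Cpr peaks of replicate 3, 20.4% overlapped a replicate 1 peak and 16.5% a replicate 2 peak, against 40.6% and 39.4% over all replicate 3 peaks. Of the 47 Cpr peaks of replicate 1, 46.8% overlapped a replicate 2 peak, against 66.6% over all. Most Cpr peaks of replicate 3 were thus not matched in another library, and a cause for this was not tested.

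**Figure D3:**
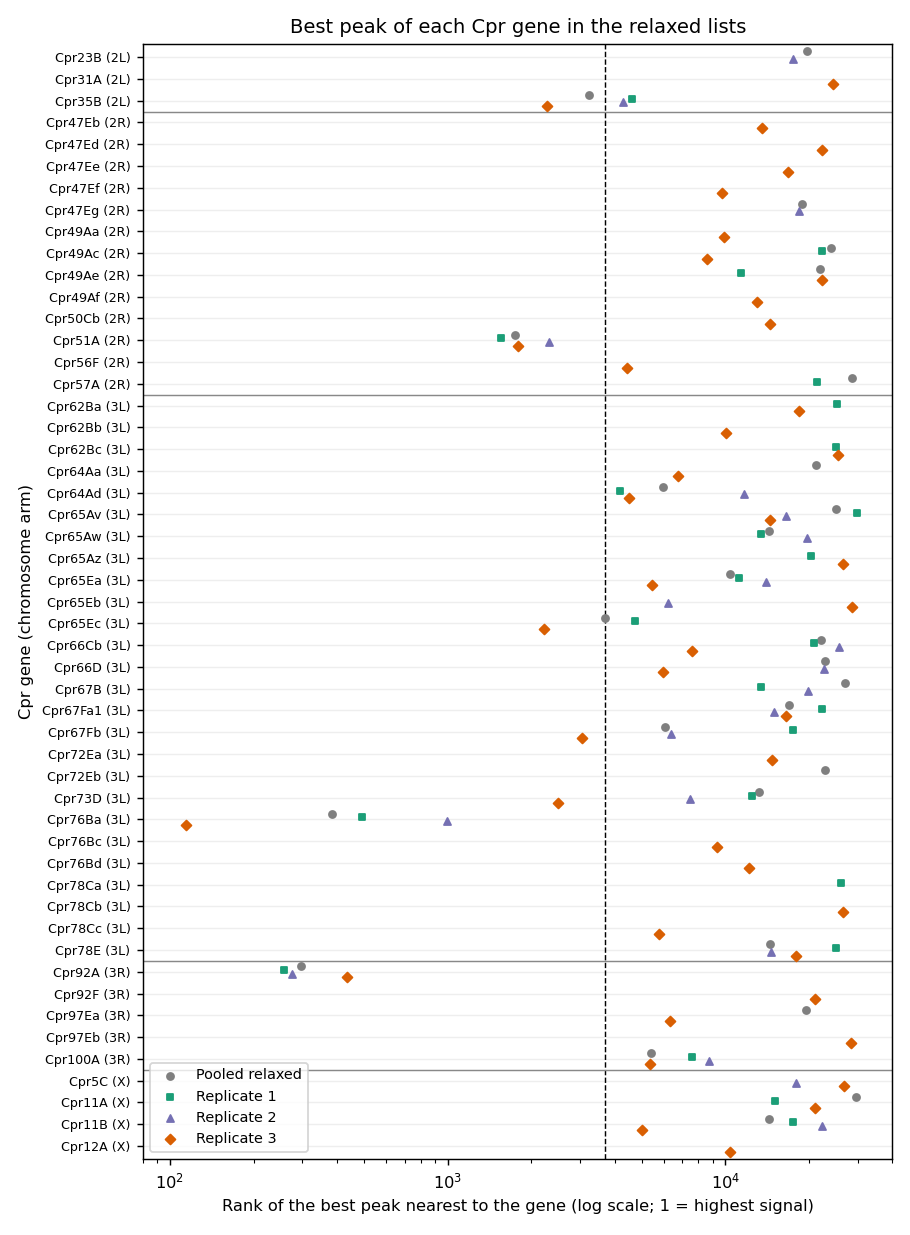
Rank of the best peak of each Cpr gene with at least 1 relaxed peak, on a log scale with rank 1 at the left, in the pooled list and each replicate; genes are ordered by chromosome arm and position, and the dashed line marks rank 3688, the size of the optimal list. Cpr92A and Cpr76Ba stood apart at the left in every list, with pooled ranks of 296 and 383, and Cpr56F and Cpr12A were among the 20 genes with peaks in replicate 3 and in neither other replicate.

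Few pooled Cpr peaks lay at the starts. Of the 55 pooled Cpr peaks, 7 were within 500 bp of a start (12.7%, 6.30 to 24.0), against 28.6% of all pooled peaks, and none of the 4 optimal peaks was, against 53.1% of all optimal peaks. The Wilson upper bound for 0 of 4 is 49.0%. These belonged to 7 of the 70 genes, Cpr23B, Cpr49Ac, Cpr57A, Cpr65Av, Cpr66D, Cpr67Fa1 and Cpr73D (interval of the share 4.93 to 19.2%), against 41.4% of all genes. Their pooled ranks ran from 16933 to 28643, so none was among the highest 15000 pooled peaks. In replicate 3, promoter peaks ranked higher, with Cpr73D at 2493, Cpr56F at 4441 and Cpr49Ac at 8583. The best ranked Cpr promoter peaks of replicates 1 and 2 were at 17503 and 13979. By replicate, the promoter share of Cpr peaks was 10.6%, 15.4% and 16.5%, against 30.2%, 32.9% and 17.6% of all peaks. In replicates 1 and 2 it was lower than over all peaks, and in replicate 3 it was about equal.

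The other pooled Cpr peaks were 27 in intergenic sequence, 15 in introns and 6 in exons, which can be those of any protein-coding gene. The intron and exon shares were 27.3% and 10.9%, against 44.3% and 7.60% over all pooled peaks. Of all 55 pooled Cpr peaks, 16 lay in the body of a gene outside the family (29.1%). Over all pooled peaks that share was 69.7%, which includes peaks in the body of their own nearest gene. In the body of their nearest gene lay 7 Cpr peaks (12.7%, against 54.7% over all pooled peaks). The intergenic share was 49.1%, against 19.5% over all pooled peaks. The bin with the largest share of them was 1000 to 2000 bp from the start, with 27.3%, against 13.2% of all pooled peaks. The median distance in the pooled list was 1591 bp, against 1799 bp over all peaks. By replicate it was 1757, 1564 and 1719 bp, against 1540, 1410.5 and 3184 bp over all peaks, so Cpr peaks lay slightly farther from the starts than all peaks in replicates 1 and 2 and nearer in replicate 3. Relative to the start, 35 pooled Cpr peaks were upstream and 20 downstream, against 13702 and 16298 of all pooled peaks. In replicates 1, 2 and 3, 27, 23 and 54 Cpr peaks were upstream and 20, 16 and 49 downstream. Over all peaks, fewer were upstream than downstream in each of these lists. Few Cpr peaks lay in the body of the nearest gene in replicates 1 and 2, with 6 in each (12.8% and 15.4%, against 56.1% and 57.6% over all peaks). Replicate 3 had 31 (30.1%, against 47.0%). No share here was adjusted for gene length.

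**Figure D4:**
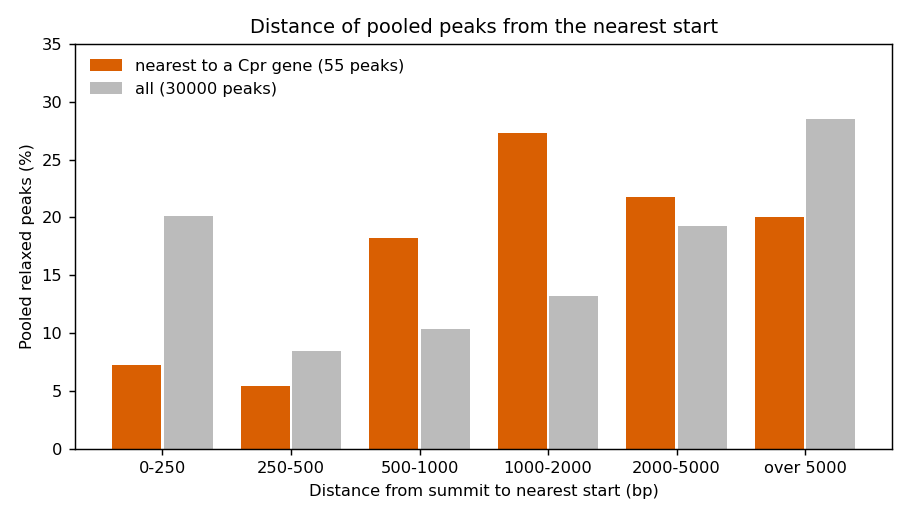
Distance from the summit to the nearest start for the 55 pooled relaxed peaks nearest to a Cpr gene (orange) and all 30000 pooled relaxed peaks (grey), as percent of each set. Cpr peaks were fewer within 250 bp, at 7.27% against 20.1%, and more at 1000 to 2000 bp, at 27.3% against 13.2%.

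Rows of neighbouring Cpr genes differed in how many genes had a pooled peak, beside 59.6% of all genes. In 47E, 7 genes shared 1 pooled peak, at Cpr47Eg, and in 49A, 8 genes had 2, at Cpr49Ac and Cpr49Ae. In 65A, where Cpr genes stand among the older named Lcp65A cuticle genes, 2 of 7 had a pooled peak. In 64A it was 2 of 4 genes, in 76B 1 of 4 and in 72E 1 of 3. The rows in 62B and 78C, of 3 genes each, had none. At 65E and 67F, also of 3 genes each, 2 genes of each had pooled peaks, with best ranks of 3700 and 6085. Replicate 3 had 7 peaks in each of 47E, 49A, 62B and 65E. In these bands replicate 1 had 0, 5, 3 and 5 peaks, and replicate 2 had 2, 0, 0 and 4. In 76B replicate 3 had 11 peaks, and replicates 1 and 2 had 2 each. Other rows differed less or not in this way. In 65A replicates 1, 2 and 3 had 3, 2 and 2 peaks, and in 64A they had 2, 1 and 3. In 67F they had 3, 3 and 5, in 72E 0, 0 and 1, and in 78C 1, 0 and 2.

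Bands with at least 3 Cpr genes held 45 of the family, of which 13 had a pooled peak (28.9%), 1 had an optimal peak (2.22%) and 16 had no peak in any replicate (35.6%). Of the 25 genes that stand alone or in a pair, 14 had a pooled peak (56.0%), 3 had an optimal peak and 4 had none in any replicate (16.0%). Over all genes the shares were 59.6%, 18.4% and 18.3%, and the genes outside the rows were close to them in the pooled list and in having no replicate peak. The genome length per gene also differed, with medians of 2650 bp in the rows and 7549 bp outside them, and its part in the difference was not tested. Repeated sequence was found in 5 of the 70 genes. All 50 bp sequences of Cpr65Ax1 and Cpr65Ax2 occur more than once in the genome, as do 48.8% of those of Cpr73D, 2.72% of those of Cpr67Fa1 and 2.39% of those of Cpr67Fa2. Neither Cpr65Ax1 nor Cpr65Ax2 had a peak in any list, and absence of binding and loss of reads that align to several places cannot be told apart there. For 65 of the 70 genes no such repeat was found.

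The sequences under Cpr peaks were searched for the 7 motifs marked in the printed windows and for CANNTG, the E-box. Within 100 bp of the summit, 10 of the 55 pooled Cpr windows held TAATTA (18.2%, 10.2 to 30.3), against 13.4% of all pooled windows and 18.0% of all optimal windows. TTAATTA was in 8 (14.5%, 7.56 to 26.2), against 8.64% of pooled windows. TATAAA was in 11 (interval of the share 11.6 to 32.4%), against 25.5%, and TCAGTT in 9 (16.4%, 8.86 to 28.3), against 12.8%. GAGAGAG was in 4 (7.27%, 2.86 to 17.3), against 4.31%. TATCGATA and AACCGGTT were in 1 window each, against 1.59% and 0.367% of pooled windows. CANNTG was in 37 (67.3%, 54.1 to 78.2), against 64.9%. Each interval printed here included the share over all pooled windows.

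Other genes of cuticle formation gave a range of shares, beside 18.4% of all genes in the optimal list, 59.6% in the pooled list and 61.3%, 59.5% and 59.1% in the replicates. In the pooled, replicate 1 and replicate 2 lists the older named and Tweedle genes had the lowest shares of the 6 other lists; this was not so in replicate 3, and in the optimal list tanning enzyme genes were at 0 as well. Of 28 genes of the same protein family that carry older names, such as the Lcp, Ccp and Edg genes, none had an optimal peak, 2 had a pooled peak, and 2, 0 and 16 had a peak in replicates 1, 2 and 3. Of 26 Tweedle genes, which encode another family of cuticle proteins, none had an optimal peak, 7 had a pooled peak, and 5, 4 and 16 had one in the replicates. Both lists showed the higher number in replicate 3 that the Cpr genes showed. They had short stretches of genome per gene, with medians of 1894.5 and 2784 bp.

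Of 38 genes of chitin synthesis, assembly and turnover, 3 had an optimal peak (7.89%) and 24 a pooled peak (63.2%), with 25, 27 and 24 in the replicates. The optimal share was below the 18.4% of all genes, and the pooled share was near the 59.6% of all genes. The 3 were Cht7, a chitinase gene, mmy, which encodes the enzyme that makes the sugar donor of chitin, and Idgf6, a chitinase-like gene. Their optimal peaks ranked 1659, 2075 and 3524, and all were within 500 bp of the start, unlike any Cpr optimal peak. The mmy peak overlapped no replicate 3 peak. Of 12 zona pellucida domain genes of the apical matrix, 2 had an optimal peak, nyo (rank 2254) and cyr (rank 3590), a share of 16.7% that is near that of all genes. A pooled peak was found at 11 of them (91.7%), and a replicate peak at 8, 9 and 11. Of 11 tanning enzyme genes, none had an optimal peak, 4 had a pooled peak (36.4%), and 6, 5 and 6 had one in the replicates (54.5%, 45.5% and 54.5%). The median genome length per gene was 13727.5 bp for the zona pellucida genes. It was 4843.5 bp for the chitin genes and 6978 bp for the tanning enzyme genes. The part of this length in the shares was not tested.

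Regulators of epidermal differentiation and moulting had the highest share of the 6 other lists in all 5 peak lists. Of 17, 12 had an optimal peak (70.6%) and all 17 had a pooled peak, with 16, 16 and 17 in the replicates. The best ranked were at genes of the ecdysone response: Hr3 at rank 66, Eip75B at 167, Hr4 at 293 and EcR, the ecdysone receptor, at 527. Of these 4 peaks, that of Eip75B was at a promoter, and the others lay in introns. Their median genome length per gene was 36502 bp, more than 10 times that of the Cpr genes, and its part in the shares was not tested.

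**Figure D5:**
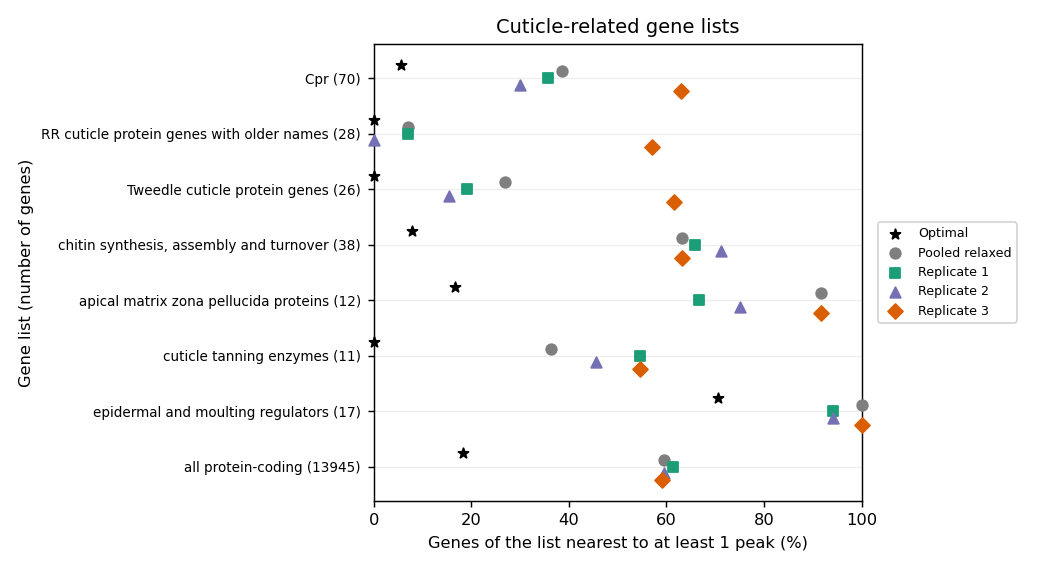
Share of genes nearest to at least 1 peak, in percent, for the Cpr genes, 6 other lists of cuticle-related genes and all protein-coding genes; each symbol is 1 peak list. Cpr, older named and Tweedle genes had replicate 3 points far to the right of replicates 1 and 2, and the regulators were at 70.6% in the optimal list.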

How the data were processed

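ChIP-seq peak lists from 3 biological replicates of 1 group were used. Per the deposited text notes, a relaxed replicate list derives from the alignments of 1 replicate and 1 further file, the pooled list from the alignments of the 3 replicates, and the optimal list from the relaxed lists. Not given in the sources used here are the aligner, the peak caller, their versions and the threshold of the irreproducible discovery rate. The deposited signal value has no stated scale and served to rank peaks within a list. The −log10 q value deposited with each peak is the authors' own and was used only to describe peaks. No read counts were used, so depth is unknown. Most summits are interval midpoints. Lists in the dm3 build (5) were not used.

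Summits were assigned to the nearest protein-coding transcription start in the BDGP 6.54 gene models (Ensembl release 115), with coordinates 1-based in dm6. A summit within 500 bp of a start was promoter; the others were exon, intron or intergenic, in that order. All records were kept, including 9 repeated intervals of the optimal list. Peaks of different lists were matched by an overlap of at least 1 bp. Motifs were sought on both strands of 201 bp windows, and repeats by 50 bp sequences on both strands of the release 6 genome (RefSeq). Scripts used Python 3.11.15, pandas 2.3.3 and numpy 2.4.6, and were tested on simulated data.

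With 1 group, no test between samples exists and no p-value is given; values stand beside the same values over all genes or peaks, with Wilson 95% intervals. Whether the replicates differ in embryo collection beyond their label is not stated. The named genes were the Cpr genes with an optimal peak, the 10 others with the best pooled rank, rows of neighbours as groups, up to 4 genes of each other list with the best optimal rank, and genes that share a named peak; Cpr56F, Cpr12A and Cpr50Cb were named after their values were seen. The genes, lists and motifs were chosen with earlier results of these data known. Of the lists' symbols, 5 were not matched. Alternatives varied the assignment, the promoter distance, the list length, the overlap and the replicates.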

Additional observations from a re-analysis of the deposited data

How the results depend on the processing

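The count of 4 Cpr genes with an optimal peak depended on how peaks are assigned. It was 0 with summits within 500 bp alone, against 12.6% of all genes. It was 2 with peaks in the gene body and 1000 bp around it (Cpr73D and Cpr76Ba, against 25.5% of all genes). With starts of every gene type it was also 2 (Cpr51A and Cpr76Ba, against 16.7%). The 4 optimal peaks became 0, 2 and, with 1 start per gene, 7 at 6 genes (against 18.7% of all genes), with Cpr11B and Cpr73D added. Requiring the replicates that remain when each is left out gave 3 genes and 3 peaks each time. The share of all genes was 12.6% without replicate 2, lower without replicate 1 and higher without replicate 3. Each of these shares was below the 18.4% of all genes with an optimal peak, so the share over all genes fell as well.

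The 27 Cpr genes with a pooled peak became 13 in the upper part of the list (15000 peaks, 42.7% of all genes), 4 in the highest 3688 (18.4%) and 7 within 500 bp (41.4%). The highest 3688 pooled peaks are those of the optimal list, so that setting only repeats the count of 4 Cpr genes with an optimal peak. With peaks required in both replicates that remain when 1 is left out, they were 9 to 16 (34.3% to 45.2% of all genes), lowest without replicate 1. The 14 with a peak in every replicate became 8, 3 and 1 under the first 3 of these settings (25.0%, 11.0% and 17.7% of all genes). Without 1 replicate they were 16 to 21 (41.3% to 50.7% of all genes). The promoter share of 12.7% became 30.9% at 1000 bp (39.0% of all peaks) and 0.00% in the upper part of the list (38.3%). Without 1 replicate it ranged from 0.00% to 8.70% (31.1% to 36.6% of all peaks). In each of these settings the Cpr share stayed below that of all genes or peaks. None of the settings used replicate 3 alone, where 62.9% of Cpr genes and 59.1% of all genes had a peak. The settings reuse the same peaks and are not independent of each other. The share of all genes with an optimal peak was 16.0% among genes of like length. Support by each replicate stood at 3 of 4 peaks with a stricter overlap (54.5% of all optimal peaks) and at 4 of 4 with whole relaxed lists (85.6%). Unknown depth and the background held in the relaxed lists limit every count above. No paired analysis was possible because there is 1 group.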
